A study of Mus musculus with 4 samples.

Results

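The genes described here are 10 transcripts of the late neutrophil program, chosen by name: S100a8, S100a9, Ngp, Ltf, Camp, Lcn2, Mmp8, Mmp9, Cd177 and Retnlg. All 10 were among the 24016 gene symbols of the deposited tables, and all 10 passed the filter on low counts that left 14853 genes for testing. They were measured by RNA-seq in hematopoietic stem cells sorted from the bone marrow of C57BL/6 mice at 4 months of age. The sort took lineage-negative cells that carried Sca-1, c-Kit and CD150 on their surface and lacked CD34 and Flt3. There were 2 NHD13 libraries, labelled NHD13+, and 2 wild-type (WT) libraries. Mice called NHD13 carry a transgene for a fusion of the nuclear pore protein NUP98 with the homeobox protein HOXD13 and are used as a model of myelodysplastic syndrome. Nothing in the labels ties a library to its own animal, to a pool or to a repeat preparation. The SDs and p-values below therefore describe how far these particular libraries lie apart, which may be technical.

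Neutrophils make their granules in waves as they mature. Proteases and myeloperoxidase are made first, in promyelocytes, and fill the azurophil granules; lactoferrin, cathelicidin and lipocalin are made later, in myelocytes and metamyelocytes, and fill the secondary granules; gelatinase fills the tertiary granules last. The transcription factor C/EBP epsilon is needed for the secondary granule genes in mice. Stem cells in the marrow are not known for making these late products, and lineage depletion is meant to remove the cells that do. Not every gene of the group is a granule gene in the strict sense, since the S100a8 and S100a9 proteins are held mainly in the cytosol and Cd177 encodes a surface glycoprotein.

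Counting 1 transcript for each gene, the depth was 35025974 and 48423689 counts in NHD13, against 42664018 and 37070939 in WT. No library was a second copy of its partner: the chi-square of their counts averaged 59.0 a gene within NHD13 and 34.6 a gene within WT, where counting noise alone gives about 1. A list of 10 stem cell genes was examined, and all 10 were detected in each library. At this depth, detection does not measure the purity of the sort. The genes of CD34 and Flt3, which the sorted cells lacked on their surface, were not examined here. The median level of the 10 genes was 0.514-fold of the WT mean in NHD13 library 1 and 0.826-fold in NHD13 library 2. Among the genes of the sorted surface proteins, Kit, the c-Kit receptor, had 991 and 1122 CPM in NHD13, against 1130 and 1271 CPM in WT, and Ly6a, which encodes Sca-1, had 131 and 77.7 CPM in NHD13, against 273 and 200.2 CPM in WT (adjusted p 0.0921). Slamf1, which encodes CD150, had 143 and 117 CPM in NHD13, against 119 and 134 CPM in WT. Esam, a surface marker of stem cells that was not used in the sort, had 27.0 and 66.3 CPM in NHD13, against 210.5 and 214 CPM in WT (adjusted p 0.0625). CPM are counts scaled to a common library size after TMM normalisation.

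The promoters of the late granule genes are shown first. A link between these sequences and the levels of the genes was not tested. RefSeq promoters on GRCm38.p6 matched 9 of the 10 genes by symbol; Mmp9 had no entry. In the 250 bases before the transcript start, TTGCNNAA, a core pattern of C/EBP sites, occurred on either strand in 6 of the 9 (Lcn2, S100a9, Mmp8, Ngp, Ltf and Retnlg) and in 9.56 percent of 32851 promoters. A looser spelling, TTNCNNAA, which every TTGCNNAA also matches, occurred in 8 of the 9 and in 36.8 percent of all promoters. GAGGAA, a core of PU.1 sites, occurred in 5 of the 9 and in 23.3 percent of all, and AACCAC, a RUNX pattern, in 0 of the 9 and in 10.8 percent of all. Among 5 early granule genes with an entry, TTGCNNAA occurred in 0 and GAGGAA in 4. The 150 bases before the start are printed for the 3 genes whose TTGCNNAA lies within them and for S100a8, which has none and is one of the most abundant. Capitals mark TTGCNNAA and GAGGAA on either strand, which did not overlap in these 4 sequences. Such matches are descriptions of letters, not of binding.
Ngp (chr9:110419658-110419807, plus strand): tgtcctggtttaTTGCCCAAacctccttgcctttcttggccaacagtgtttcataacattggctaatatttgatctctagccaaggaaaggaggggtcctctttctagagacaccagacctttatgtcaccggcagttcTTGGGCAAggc
Ltf (chr9:111019142-111019291, plus strand): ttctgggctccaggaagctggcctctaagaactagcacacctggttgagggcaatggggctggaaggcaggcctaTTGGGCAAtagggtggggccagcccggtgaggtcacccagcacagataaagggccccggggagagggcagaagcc
Mmp8 (chr9:7558279-7558428, plus strand): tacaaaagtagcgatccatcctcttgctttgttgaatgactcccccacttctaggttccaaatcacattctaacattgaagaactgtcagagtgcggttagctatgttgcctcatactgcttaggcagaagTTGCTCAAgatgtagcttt
S100a8 (chr3:90668921-90669070, plus strand): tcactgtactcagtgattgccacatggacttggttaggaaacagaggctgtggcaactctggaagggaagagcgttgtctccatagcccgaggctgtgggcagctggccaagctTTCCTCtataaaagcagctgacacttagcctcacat

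The question put to these genes was whether stem cells of NHD13 marrow carry more late granule RNA than those of WT marrow, and how that difference compares with the difference between the NHD13 libraries. All 10 genes were high in NHD13 library 1, at 5.60-fold (Retnlg) to 11.1-fold (Ngp) of the WT mean. In NHD13 library 2 they were at 0.873-fold (Lcn2) to 2.29-fold (Mmp9) of it. Together they took 0.280 percent of the counts of NHD13 library 1 and 0.0383 percent of those of NHD13 library 2, against 0.0336 and 0.0280 percent in the WT libraries. By edgeR's quasi-likelihood test on all 4 libraries, 0 of the 10 were called at an adjusted p of 0.05, where 2.07 percent of all genes tested were called higher. At an unadjusted p under 0.05 there were 2 members, Mmp9 and Ngp, against 12.9 percent of all genes that were higher at that level. In bulk samples such as these, more cells of a type and more RNA per cell cannot be told apart.

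**Figure D1:**
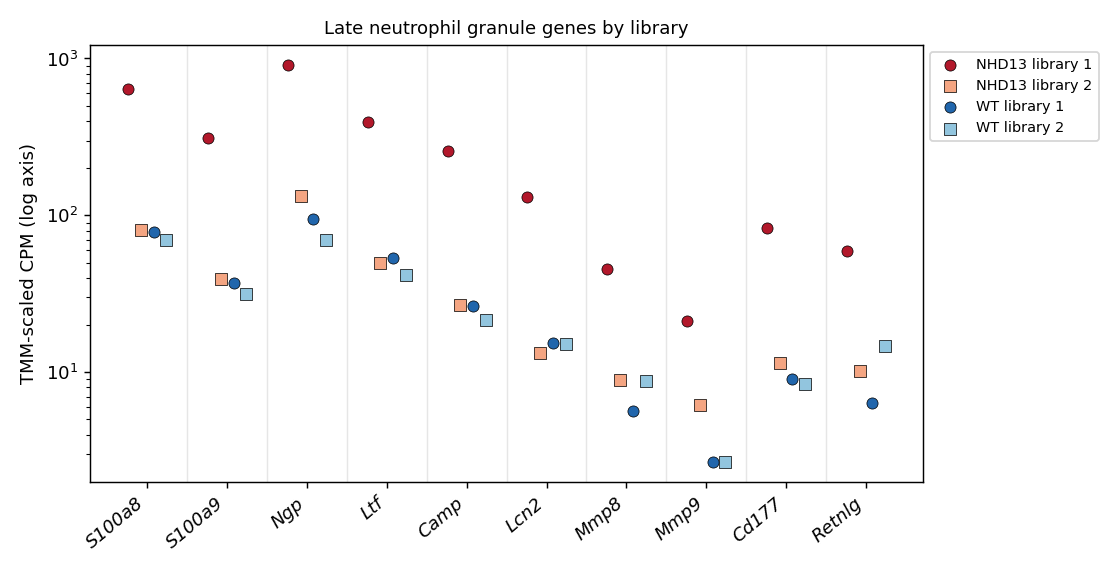
TMM-scaled CPM of the 10 late neutrophil granule genes (log axis) in NHD13 library 1, NHD13 library 2, WT library 1 and WT library 2, 1 point per library. NHD13 library 1 is the highest point for every gene. NHD13 library 2 lies near the WT points for most genes. It is farthest above them for Mmp9, at 2.29-fold of the WT mean, and then for Ngp, at 1.61-fold.

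S100a8 and S100a9 encode the subunits of calprotectin, a calcium- and zinc-binding complex that makes up much of the neutrophil cytosol. Their genes are neighbours on chromosome 3, with 0 annotated genes between them. S100a8 was at 639.9 CPM in NHD13 library 1 and 80.1 CPM in NHD13 library 2, against 78.7 and 69.9 CPM in WT. S100a9 had 309 and 39.5 CPM in NHD13, against 37.0 and 31.6 CPM in WT. For both subunits NHD13 library 2 was the nearest to WT and still above both WT libraries, so the groups did not overlap. The group means of S100a8 were 360.0 ± 396 CPM in NHD13 and 74.3 ± 6.26 CPM in WT (SD, n = 2 each), and the SD in NHD13 exceeded the mean. The log2 fold change of NHD13 over WT was 2.28 ± 0.96 (SE) for S100a8 (adjusted p 0.215) and 2.34 ± 0.95 for S100a9 (adjusted p 0.206). S100a9 has 2 transcripts in the tables with identical counts, of which 1 was used.

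The secondary granule genes were also highest in NHD13 library 1, and the order of the other 3 libraries varied between genes. Ngp, which encodes a cystatin- and cathelicidin-related protein of mouse neutrophil granules and whose promoter above has TTGCNNAA matches that begin 138 and 11 bases before the start, had 915 and 132 CPM in NHD13, against 94.3 and 70.1 CPM in WT. It was the member with the largest log2 fold change, 2.67 ± 0.92 (adjusted p 0.160), and the groups did not overlap. Ltf encodes lactoferrin, which binds iron, and had 393 and 49.7 CPM in NHD13, against 53.4 and 41.5 CPM in WT. Here NHD13 library 2 lay between the WT libraries (log2 fold change 2.22 ± 0.96, adjusted p 0.225). Camp encodes the precursor of the antimicrobial peptide cathelicidin and had 258 and 26.7 CPM in NHD13, against 26.5 and 21.4 CPM in WT. NHD13 library 2 and WT library 1 were nearly level for Camp (log2 fold change 2.57 ± 1.05, adjusted p 0.207). Lcn2 encodes lipocalin 2, which sequesters bacterial iron carriers, and had 132 and 13.3 CPM in NHD13, against 15.3 and 15.1 CPM in WT. For Lcn2 NHD13 library 2 was below both WT libraries (log2 fold change 2.25 ± 1.04, adjusted p 0.249).

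The matrix metalloproteinases were less abundant. Mmp8, the neutrophil collagenase, had 45.3 and 8.86 CPM in NHD13, against 5.66 and 8.73 CPM in WT, so NHD13 library 2 was level with WT library 2 (log2 fold change 1.91 ± 0.79, adjusted p 0.207). Mmp9, the gelatinase of tertiary granules, had 21.3 and 6.14 CPM in NHD13, against 2.69 and 2.68 CPM in WT. Mmp9 was the member in which NHD13 library 2 stood farthest above WT. Its log2 fold change was 2.35 ± 0.63, with the smallest adjusted p of the 10 (0.102 by edgeR). DESeq2 called Mmp9 (adjusted p 0.00142) and no other member, while it called 8.2 percent of all genes higher; limma-voom called 0 of the 10 and 1.8 percent of all genes higher. The median log2 fold change over the 10 was 1.59 by limma-voom, against 2.31 by edgeR.

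Cd177, a surface glycoprotein of neutrophils, had 83.3 and 11.4 CPM in NHD13, against 9.10 and 8.37 CPM in WT (log2 fold change 2.43 ± 0.93, adjusted p 0.188). Retnlg, which encodes a resistin-like secreted protein of rodents, had 59.1 and 10.1 CPM in NHD13, against 6.32 and 14.8 CPM in WT. Retnlg had the widest spread within WT and the smallest log2 fold change of the 10, 1.71 ± 0.91 (adjusted p 0.301). It was the only member whose WT libraries differed by 2-fold or more, which 8.75 percent of all genes tested did. Over the 10 members, both NHD13 libraries lay above both WT libraries in 7, against 30.1 percent of all genes. Ltf, Lcn2 and Retnlg were the exceptions. The margin of NHD13 library 2 over the higher WT library was small for Camp (26.7 against 26.5 CPM) and Mmp8 (8.86 against 8.73 CPM). It was also small for S100a8 (80.1 against 78.7 CPM), so these genes were nearly level rather than clearly apart.

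The difference between the NHD13 libraries was larger than the difference between the groups for most members. NHD13 library 1 was above NHD13 library 2 by 3.47-fold (Mmp9) to 9.90-fold (Lcn2), with a median of 7.57-fold over the 10. The 95% exact binomial interval of that ratio, which covers counting error only, was 3.03 to 3.98 for Mmp9 and 9.12 to 10.8 for Lcn2. A ratio of 4-fold or more was reached by 9 of 10 members and by 1.49 percent of all genes tested (222 genes), with Mmp8 at 5.12-fold next above that line and Mmp9 below it. The share of all genes with a larger ratio than the member was between 0.357 percent (Lcn2) and 1.83 percent (Mmp9). On the log2 scale the ratio between the NHD13 libraries exceeded the fold change of NHD13 over WT in 9 of 10 members, against 41.2 percent of all genes; for Mmp9 it was 1.80 against a fold change of 2.35. The SD of log2 CPM over the libraries of a group was 1.26 (Mmp9) to 2.34 (Lcn2) in NHD13 and 0.0029 (Mmp9) to 0.86 (Retnlg) in WT.

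**Figure D2:**
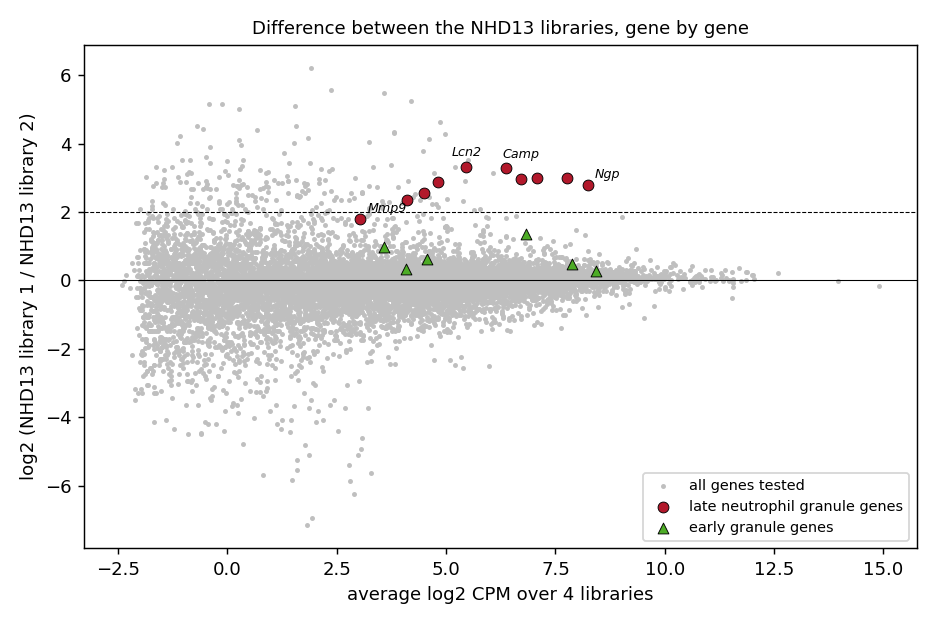
Log2 ratio of NHD13 library 1 to NHD13 library 2 (y axis) against average log2 CPM over the 4 libraries (x axis) for all genes tested (grey), the 10 late neutrophil granule genes (circles) and 6 early granule genes (triangles); the dashed line is a 4-fold ratio. Of the late genes 9 lie above the line, with Mmp9 just below it, and the early granule genes lie below it.

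Each NHD13 library was also set against WT by itself. NHD13 library 1 was at least 4-fold above the WT mean for 10 of 10 members (3.72 percent of all genes), and NHD13 library 2 for 0 of 10 (2.65 percent of all genes). A 2-fold excess in NHD13 library 2 was found for 1 member, Mmp9 (6.65 percent of all genes). Against the pooled WT counts, NHD13 library 2 had 2.29 times as much Mmp9 (95% counting interval 1.91 to 2.74), 1.59 times as much Ngp (1.53 to 1.64) and 0.873 times as much Lcn2 (0.793 to 0.961). For Ltf (0.984 to 1.09) and Retnlg (0.888 to 1.11) the counting interval included 1. These intervals cover counting error only and leave out the spread between libraries.

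The test was repeated with each library left out. Without NHD13 library 2, edgeR called 9 of the 10 members higher, against 2.88 percent of all genes, with log2 fold changes of 2.49 (Retnlg, adjusted p 0.123, not called) to 3.48 (Ngp, 0.0168). Without NHD13 library 1 it called 0 of the 10, with 0.765 percent of all genes called higher and 2 members (Mmp9 and Ngp) at an unadjusted p under 0.05. In that fit the median log2 fold change over the 10 was 0.19, from -0.19 (Lcn2) to 1.20 (Mmp9, adjusted p 0.197), against 2.31 on all 4 libraries. Without WT library 1 or WT library 2, 0 members and 0 percent of all genes were called higher, and 0 members had an unadjusted p under 0.05. In each such fit the spread comes from the remaining pair, and the lone library is assumed to vary as much.

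The make-up of the late granule RNA varied less between the libraries than its amount. S100a8 made up 22.4 and 21.2 percent of the summed CPM of the 10 genes in NHD13, against 23.9 and 24.6 percent in WT. S100a9 made up 10.8 and 10.4 percent in NHD13, against 11.2 and 11.1 percent in WT. Ngp had 32.0 and 35.0 percent in NHD13, against 28.7 and 24.7 percent in WT, with the NHD13 libraries above both WT libraries. Cd177 had 2.92 and 3.01 percent in NHD13, against 2.77 and 2.95 percent in WT. Larger departures were seen for the shares of Mmp9, at 0.747 and 1.62 percent in NHD13 and 0.817 and 0.944 percent in WT, and of Retnlg, at 2.07 and 2.68 percent in NHD13 and 1.92 and 5.19 percent in WT. These shares are of CPM not corrected for transcript length, so they compare libraries and not genes.

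**Figure D3:**
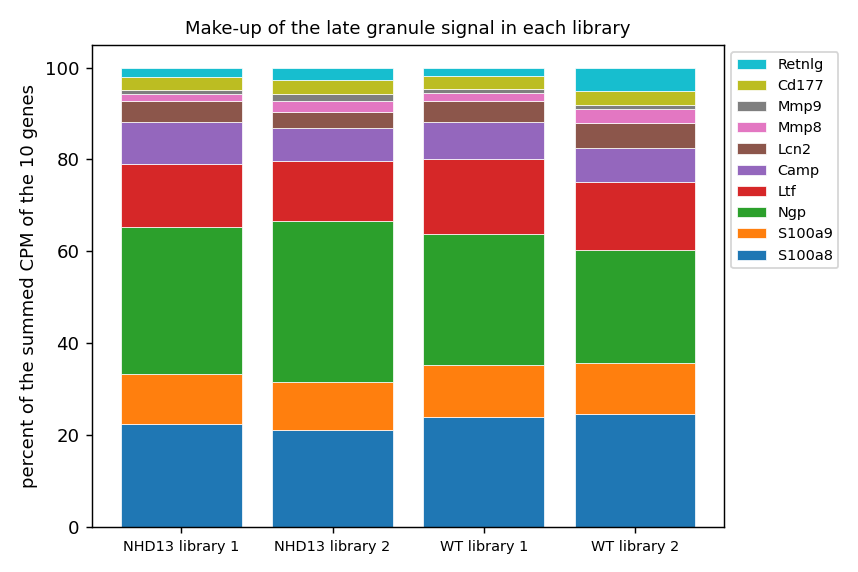
Share of each of the 10 genes in their summed CPM (percent, stacked to 100) in NHD13 library 1, NHD13 library 2, WT library 1 and WT library 2. The S100a8 share is between 21.2 and 24.6 percent in the 4 libraries, and Retnlg is largest in WT library 2, at 5.19 percent.

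Per kilobase of transcript, with lengths from GENCODE M21 matched by RefSeq accession, the order of levels in the WT mean was S100a8 (153 CPM per kb), Ngp (67.3), S100a9 (66.1), Camp (31.6), Retnlg (17.8), Ltf (17.3), Lcn2 (16.6), Cd177 (3.22), Mmp8 (2.97) and Mmp9 (0.846). In NHD13 library 1 the order was almost the same, with S100a8 at 1317, Ngp at 749, S100a9 at 596, Camp at 341, Lcn2 at 144, Ltf at 143, Retnlg at 99.6, Cd177 at 30.7, Mmp8 at 18.7 and Mmp9 at 6.72 CPM per kb. In NHD13 library 2 the span was from 165 (S100a8) to 1.93 (Mmp9) CPM per kb. Within WT the neighbours Ngp and S100a9 overlapped in their libraries, as did Retnlg, Ltf and Lcn2 among themselves and Cd177 with Mmp8, so their order there is not larger than the spread.

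Most early granule genes were high in both NHD13 libraries. Of 6, 5 were called higher on all 4 libraries, against 2.07 percent of all genes. They were Mpo (myeloperoxidase), Elane (neutrophil elastase), Ctsg (cathepsin G), Prss57 and Ms4a3. Prss57 encodes a serine protease of azurophil granules, and Ms4a3 a membrane protein of granulocyte and monocyte precursors. Mpo had 709 and 587 CPM in NHD13, against 49.0 and 39.2 CPM in WT (log2 fold change 3.88 ± 0.17, adjusted p 0.0047). Elane had 297 and 116 CPM in NHD13, against 25.1 and 16.6 CPM in WT (3.30 ± 0.52, adjusted p 0.0454). Prtn3, the proteinase 3 gene, had 229 and 165 CPM in NHD13, against 270.2 and 273 CPM in WT (-0.47 ± 0.17, adjusted p 0.171). The median ratio of NHD13 library 1 to NHD13 library 2 was 1.46-fold over these 6, with 0 at 4-fold or more. Their median level in NHD13 library 2 was 5.38-fold of the WT mean, where that of the late genes was 1.13-fold. The difference between the 2 lists was not tested. Without WT library 1 or WT library 2, 0 of the 6 were called by edgeR, while 5 had an unadjusted p under 0.05 either way; without NHD13 library 1 there were 3 calls, and limma-voom and the sum over transcripts called 3 each.

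**Figure D4:**
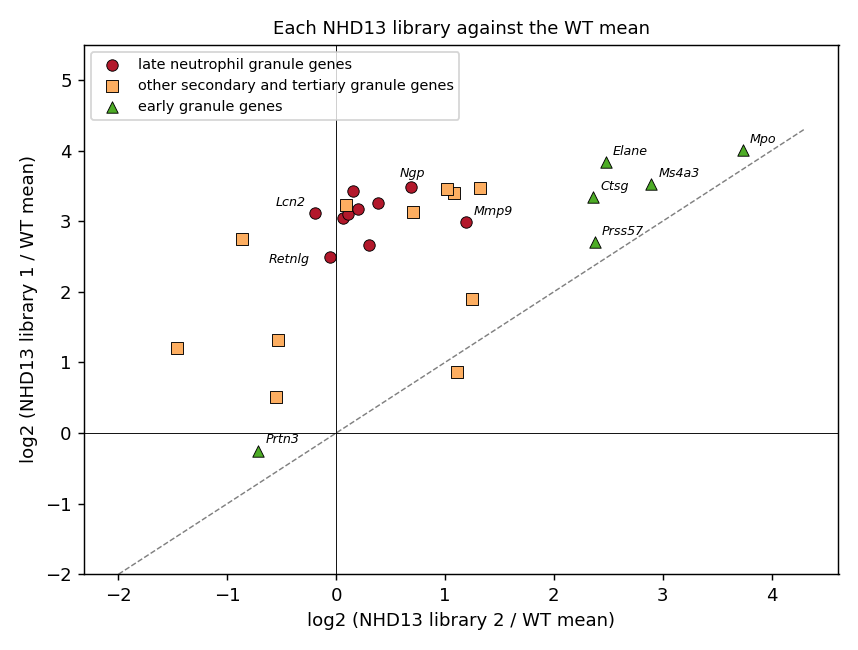
Log2 ratio of NHD13 library 1 to the WT mean (y axis) against that of NHD13 library 2 to the WT mean (x axis), 1 point per gene; circles are the 10 late neutrophil granule genes, squares 11 other secondary and tertiary granule genes and triangles 6 early granule genes, and the dashed line marks equal ratios. The late genes sit high on the y axis and near 0 on the x axis, with Mmp9 and Ngp farthest right, and the early genes other than Prtn3 sit to the right near the dashed line.

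Other genes of secondary and tertiary granules split in their pattern. Of 11 tested, 1 was called, Pglyrp1, a peptidoglycan-binding protein gene, at 53.0 and 33.7 CPM in NHD13, against 13.7 and 14.6 CPM in WT (log2 fold change 1.61 ± 0.25, adjusted p 0.0431). By the same test 2.07 percent of all genes were called higher. The median log2 fold change of the 11 was 1.84, against 0.0013 over all genes tested. Of the 11, 7 were 4-fold or more higher in NHD13 library 1 than in NHD13 library 2, against 1.49 percent of all genes. Hp, the haptoglobin gene, had 79.6 and 18.0 CPM in NHD13, against 8.44 and 5.97 CPM in WT (adjusted p 0.105), and Cybb, a subunit gene of the NADPH oxidase, at 120.2 and 24.1 CPM in NHD13, against 13.7 and 9.11 CPM in WT (adjusted p 0.128). Slpi, a protease inhibitor gene, did not follow the libraries in this way, with 52.9 and 62.9 CPM in NHD13, against 35.4 and 22.9 CPM in WT (adjusted p 0.0868). Orm1 did not pass the filter.

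Among genes of the surface and cytosol of mature neutrophils, 3 of 15 tested were called, all higher, against 2.07 percent of all genes. Clec4d, a lectin receptor gene, had 13.7 and 9.53 CPM in NHD13, against 3.13 and 2.71 CPM in WT (log2 fold change 1.99 ± 0.29, adjusted p 0.0390). Stfa1 and BC100530, stefin-type protease inhibitor genes with near-identical copies that can share reads, were at 20.5 and 5.90 CPM and at 15.2 and 3.78 CPM in NHD13, against at most 0.299 CPM in WT (adjusted p 0.0404 and 0.0395). Of the 15, 8 were 4-fold or more higher in NHD13 library 1 than in NHD13 library 2, against 1.49 percent of all genes. The median ratio over the 15 was 4.02-fold. The receptor gene Csf3r, named for its role in neutrophil production and chosen after its values were seen, had 82.9 and 42.2 CPM in NHD13, against 68.6 and 61.9 CPM in WT. Ly6g was not among the gene symbols of the deposited tables, and BC117090 did not pass the filter.

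No gene of 8 regulators of granulocyte differentiation was called by edgeR, with 2 at an unadjusted p under 0.05, Cebpe and Spi1. Of all 14853 genes tested, 636 were called by edgeR and 3983 had an unadjusted p under 0.05. Cebpe, which encodes C/EBP epsilon, had 9.28 and 2.88 CPM in NHD13, against 0.759 and 1.29 CPM in WT (log2 fold change 2.57 ± 0.69, adjusted p 0.103), so it was highest in NHD13 library 1 and in NHD13 library 2 was still above both WT libraries. Spi1, which encodes PU.1, had 28.5 and 25.3 CPM in NHD13, against 19.2 and 19.3 CPM in WT (0.48 ± 0.14, adjusted p 0.113). Gfi1, a repressor needed for neutrophil development, had 5.41 and 7.31 CPM in NHD13, against 2.92 and 4.19 CPM in WT (adjusted p 0.194). Runx1 had 83.6 and 84.6 CPM in NHD13, against 94.3 and 96.4 CPM in WT (adjusted p 0.259).

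Receptors, partners and inhibitors of the granule proteins were also examined, with 0 of 10 tested called by edgeR and 1 at an unadjusted p under 0.05. Over all 14853 genes the edgeR counts were 636 called and 3983 at an unadjusted p under 0.05. Tlr4, a receptor of extracellular calprotectin, had 21.9 and 37.1 CPM in NHD13, against 49.9 and 62.2 CPM in WT (log2 fold change -0.92 ± 0.28, adjusted p 0.127). Ager, the gene of another calprotectin receptor, had 0.873 and 1.14 CPM in NHD13, against 0.391 and 0.411 CPM in WT (adjusted p 0.191). Pecam1, whose product binds CD177, had 81.1 and 97.8 CPM in NHD13, against 67.5 and 78.4 CPM in WT (adjusted p 0.256). Timp2, an inhibitor of metalloproteinases, had 5.70 and 9.53 CPM in NHD13, against 13.5 and 10.1 CPM in WT (adjusted p 0.291). Their median ratio of NHD13 library 1 to NHD13 library 2 was 0.903-fold, against 0.990-fold over all genes tested.

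The genes outside the 10 with the most similar pattern were found by the distance between mean-centred log2 CPM profiles over the 4 libraries. Among genes whose average log2 CPM was 1 or more, the 8 nearest were Slc45a3, Ms4a4c, Mcemp1, Ccl6, Chil3, Pkib, Trem1 and Lrg1, at Euclidean distances of 0.203 to 0.440 from the median profile of the members. Slc45a3 had 26.6 and 3.96 CPM in NHD13, against 3.66 and 3.15 CPM in WT. Chil3, a chitinase-like gene, had 204 and 23.1 CPM in NHD13, against 26.3 and 17.2 CPM in WT. Of the 8, 0 were called by edgeR on all 4 libraries, with Ms4a4c and Mcemp1 at an unadjusted p under 0.05. Because the 8 were picked by their profile in these same libraries, their pattern and the lack of calls largely follow from the choice. Mcemp1, Trem1 and Lrg1 also belong to the mature neutrophil list above, and Chil3 to that of other secondary and tertiary granule genes.

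Markers of some other cell types also differed between the NHD13 libraries. A list of 11 monocyte and macrophage markers, of which 10 were tested, summed to 464 and 160 CPM in NHD13, against 59.8 and 37.4 CPM in WT. Ly6c2 was at 211 and 86.3 CPM and Ccr2 at 55.8 and 15.3 CPM in NHD13, against 22.9 and 10.1 CPM and 6.85 and 2.85 CPM in WT (adjusted p 0.063 and 0.102), and Cd68 rose (35.5 and 31.8 CPM in NHD13, against 10.5 and 10.6 CPM in WT, adjusted p 0.0151). Basophil and mast cell genes did not move together. The receptor subunit gene Ms4a2 had 111 and 4.45 CPM in NHD13, against 0.621 and 1.07 CPM in WT, and the protease gene Cpa3 had 21.3 and 107 CPM in NHD13, against 3.98 and 3.09 CPM in WT. Fcer1a, another subunit gene of the same receptor, fell, with 0 and 1 counts in NHD13, against 40 and 62 counts in WT (adjusted p 0.0444), and was the only called gene of that list. T and NK cell genes did not move together either. Of 8 tested, 4 were at least 4-fold higher in NHD13 library 2 than in NHD13 library 1 (430 of 14853 genes tested). Cd3g had 1.02 and 30.8 CPM in NHD13, against 0.552 and 0.602 CPM in WT. Lck had 17.5 and 97.3 CPM in NHD13, against 15.4 and 17.1 CPM in WT. Gzma went the other way, at 0.407 and 0.0408 CPM in NHD13, against 0.506 and 0.164 CPM in WT. Cd3d had 0.407 and 0.633 CPM in NHD13, against 0.736 and 0.520 CPM in WT. Stem cell markers summed to 2193 and 2726 CPM in NHD13, against 3766 and 3908 CPM in WT, and Hlf fell, at 113 and 71.0 CPM in NHD13, against 284 and 320.4 CPM in WT (adjusted p 0.0373). Of the basophil and mast cell list Cma1 was at 0 counts in every library; the list summed to 165 and 126 CPM in NHD13, against 27.3 and 13.7 CPM in WT. Eosinophil markers summed to 146 and 221 CPM in NHD13, against 5.15 and 379.7 CPM in WT, erythroid markers to 1909 and 2737 CPM, against 3812 and 4355 CPM, T and NK cell markers to 22.1 and 197 CPM, against 19.96 and 19.6 CPM, B cell markers to 91.0 and 98.0 CPM, against 74.9 and 82.5 CPM, and megakaryocyte markers to 383 and 468 CPM, against 447 and 399.9 CPM. The part of other cells in the level of the late granule genes was not tested.

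**Figure D5:**
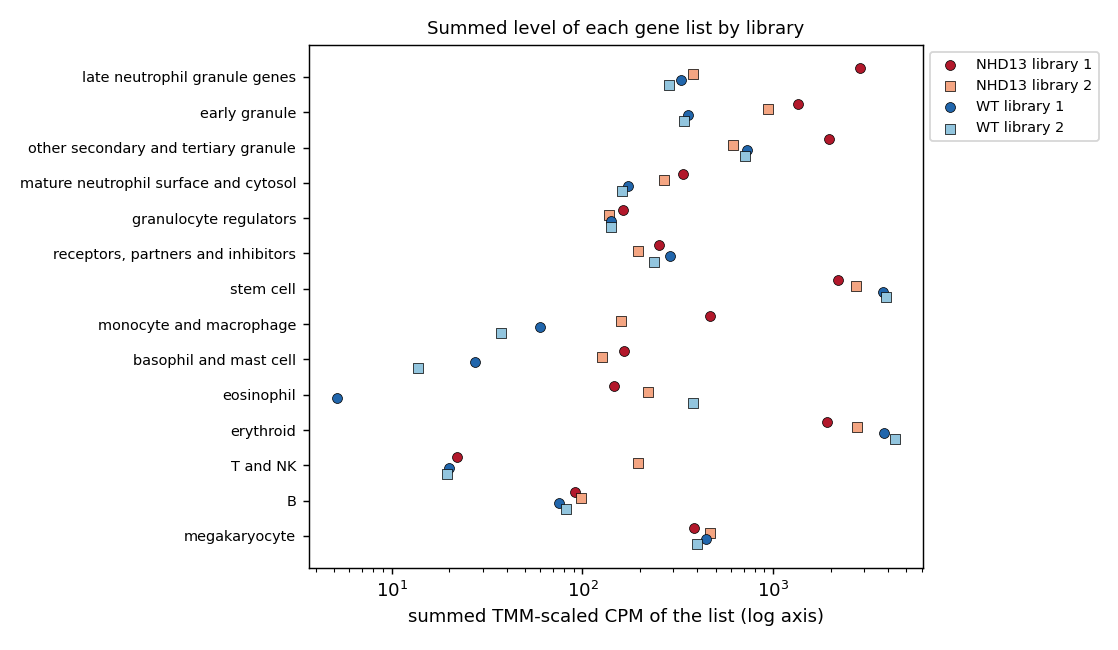
Summed CPM of each gene list (log axis) in NHD13 library 1, NHD13 library 2, WT library 1 and WT library 2, 1 row per list. The late neutrophil granule genes sum to 2857 and 378 CPM in NHD13, against 329 and 284 CPM in WT. The early granule genes sum to 1347 and 942 CPM in NHD13, against 356 and 342 CPM in WT. Of these early sums, Prtn3 gave 229 and 165 CPM in NHD13, against 270.2 and 273 CPM in WT.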

How the data were processed

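Per the labels' protocols, RNA from the sorted cells was prepared with Trizol and SMARTer low-input amplification, and both ends of each fragment were read. The submitters' processing notes name Bowtie 0.12.2 and the mm9 build. How reads were counted (program, strand, reads placed at more than 1 site) is not given in the sources used here. The authors deposited raw counts for 33018 RefSeq transcripts in each of 4 tables. For a symbol with several transcripts, the one with the most counts in all was kept; no member shared its counts with another symbol.

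NHD13 was tested against WT with edgeR 4.0.16 (R 4.3.3): default filter, TMM scaling, robust quasi-likelihood test on all 4 libraries and Benjamini-Hochberg adjustment over all 14853 genes. The standard error is the log2 fold change divided by the square root of F. The biological coefficient of variation was 26.9 percent. The members, the lists and the rule for naming other genes (all early granule genes, up to 4 genes with the smallest p of each other list, and the 8 of nearest profile) were chosen with earlier results of these data known. Alternatives used DESeq2 1.42.0 and limma 3.58.1 (voom), other scalings and filters, a non-robust fit, the replicate number as a block, summed transcripts and each library left out; a crossed pairing was added after seeing the data.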

Additional observations from a re-analysis of the deposited data

How the results depend on the processing

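Under the alternatives that kept all 4 libraries, all 10 late granule genes stayed above 0 in log2 fold change and the number called stayed at 0, except with DESeq2, which called 1 (Mmp9). Their fold changes were smaller by limma-voom, with a median log2 value of 1.59, against 2.31 by edgeR, and with Lcn2 at 1.30, against 2.25; the cause was not tested. Leaving out a library gave 0 to 9 calls among them, with 9 without NHD13 library 2, and turned Lcn2 (range -0.19 to 3.12) and Retnlg (range -0.048 to 2.49) below 0 without NHD13 library 1. Over all genes 636 were called, against 1138 without a filter, 1066 with at least 1 CPM in both libraries of a group, 2604 by DESeq2, 402 with summed transcripts and 0 to 990 with a library left out; the causes were not tested. With the replicate number as a block 107 genes and 0 members were called, with a median log2 fold change of 1.66 over the members. The labels do not say that the numbers pair the libraries. Deviations of same-numbered libraries correlated at -0.21, and the cause was not tested. The crossed pairing as a block called 647 genes and 0 members. A ratio of 8-fold or more between the NHD13 libraries was reached by 2 members, against 9 at 4-fold and 10 at 2-fold; leaving out a library could not be done for that ratio. With 2 libraries per group, precision is limited by the spread between libraries and not by depth.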
